A study of Mus musculus with 4 samples.

Results

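NK receptor genes were followed in human lymphocytes recovered from humanised mice, namely KLRF1, KLRD1, KLRC1, KLRC2, KLRC4, KLRK1, KLRG1, NCR1, NCR3 and FCGR3A. They were taken by name as the 10 members of a receptor group, out of 33538 human genes in the count tables, and each was read in barcodes with over 50% of unique molecular identifiers (UMIs, counts of single captured transcripts) on human genes. Droplet-based 3' scRNAseq was done on 4 libraries, 1 each for naïve blood, sham blood, SCI blood and SCI spinal cord, which gave 17048 human cells after filtering. The hosts were huNSG-SGM3 mice, on the NOD.Cg-Prkdcscid IL2rgtm1Wjl background with a transgene in which the CMV promoter drives human IL3, CSF2 and KITLG (1Eav/MloySzJ). They were irradiated as pups and engrafted with human CD34+ haematopoietic stem cells from cord blood, and the labels give an age of 15 weeks.

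Naïve mice had no surgery, sham mice had a laminectomy at T9, and SCI mice had a contusion at T9. The operated groups were sampled at 7 days post-surgery. Cells of several animals were pooled into each library and sorted for human CD45, with an additional magnetic enrichment for the cord. Such hosts lack NK cells, T cells and B cells of their own, and the 3 cytokine transgenes favour human myeloid cells. Host sex was male for the naïve and sham libraries and both sexes for the SCI libraries. With 1 library per condition, condition cannot be told apart from library, host sex, animal pool or stem cell donor, and comparisons between libraries below carry no test.

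NK cells read the surface of other cells through pairs of activating and inhibitory receptors encoded in part by the lectin-like KLR genes. KLRD1 (CD94) pairs with KLRC1 (NKG2A) into an inhibitory receptor for HLA-E, or with KLRC2 (NKG2C) into an activating one that signals through the adaptor TYROBP. KLRK1 (NKG2D) recognises stress-induced ligands and signals through HCST, KLRF1 (NKp80) binds CLEC2B, and NCR1 (NKp46) and NCR3 (NKp30) are natural cytotoxicity receptors. FCGR3A (CD16a) binds antibody-coated cells, and KLRG1 is an inhibitory receptor for cadherins. Cytotoxic T cells that have met antigen can carry many of the same receptors.

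The libraries held 6331 (naïve blood), 4659 (sham blood), 5940 (SCI blood) and 118 (SCI cord) human cells, with medians of 3699, 5234, 4656.5 and 9331 UMIs per cell. Between 27905884 and 31281216 human UMIs were kept per blood library and 1430777 in the cord, and pairs of libraries shared at most 10 human barcodes. Cells were assigned to classes from UMIs of genes that are not members. An NK-like cell had no UMI of CD3D, CD3E, CD3G or TRAC, at most 1 UMI each of a B cell and a myeloid panel, and at least 3 UMIs over GNLY, NKG7, PRF1, CTSW, KLRB1 and NCAM1. T cells (11882 in blood) were divided by CD4, CD8, FOXP3, GZMK, TRDC and a panel of cytotoxic genes (GNLY, GZMH, FGFBP2, GZMB and NKG7) into 9 classes. In blood there were 924 cytotoxic CD8 T cells.

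CD3-negative lymphocytes outside the B cell gate were scarce, with 23 NK-like cells in blood. There were 6 NK-like cells in naïve blood, 5 in sham blood and 12 in SCI blood, or 0.0948% (exact 95% interval 0.0348 to 0.206), 0.107% (0.0349 to 0.250) and 0.202% (0.104 to 0.353) of human cells. The intervals overlap, and cover counting error only, as do all intervals and floors below. The cord held none among its 118 cells, where a count of 0 permits at most 2.54%. A further 4 such CD3-negative cells in blood fell short of the NK panel. The NK-like label was checked on genes that were not in its gate. IL2RB had 6, 4 and 12 UMIs in naïve, sham and SCI blood, XCL2 5, 14 and 16, EOMES 3, 4 and 3, and TBX21 3, 1 and 5. The adaptor TYROBP was found in 21 of 23 cells. In the edgeR comparison with cytotoxic CD8 T cells described below, IL2RB (log2 difference 2.26, adjusted p = 0.000699) and XCL2 (4.73, 1.20e-05) were higher. EOMES (0.44, 0.740) and TBX21 (1.51, 0.217) did not pass and so do not separate NK-like from cytotoxic CD8 T cells. Transcripts of TRBC1 or TRBC2, which were not in the gate, were nevertheless present in 16 of the 23 cells (2 of 6, 5 of 5 and 9 of 12), with at most 5 UMIs in a cell. Barring these as well left 4, 0 and 3 NK-like cells, or 0.0632%, 0 and 0.0505% of human cells, so that naïve and no longer SCI blood had the highest share. TYROBP was found in 6 of the 7 cells without them and in 15 of the 16 with them.

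Every NK-like cell held a UMI of at least 1 member, and the usual cell held several. The median number of members per cell was 3 in naïve blood, 4 in sham blood and 3 in SCI blood, with up to 8 in a single cell. KLRD1 was found in 18 of the 23 cells, KLRC1 in 16, KLRF1 in 12, NCR3 in 9, KLRC2 and KLRG1 in 7 each, FCGR3A in 6, NCR1 in 4 and KLRC4 in 3. KLRK1 had no UMI in any of them. In the 7 cells without TRBC transcripts, KLRD1 was found in 6, KLRC1 in 3 and KLRF1 in 2, against 12, 13 and 10 of the 16 cells with such transcripts. Because the groups hold few cells and few UMIs, these numbers are given as counts only.

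**Figure D1:**
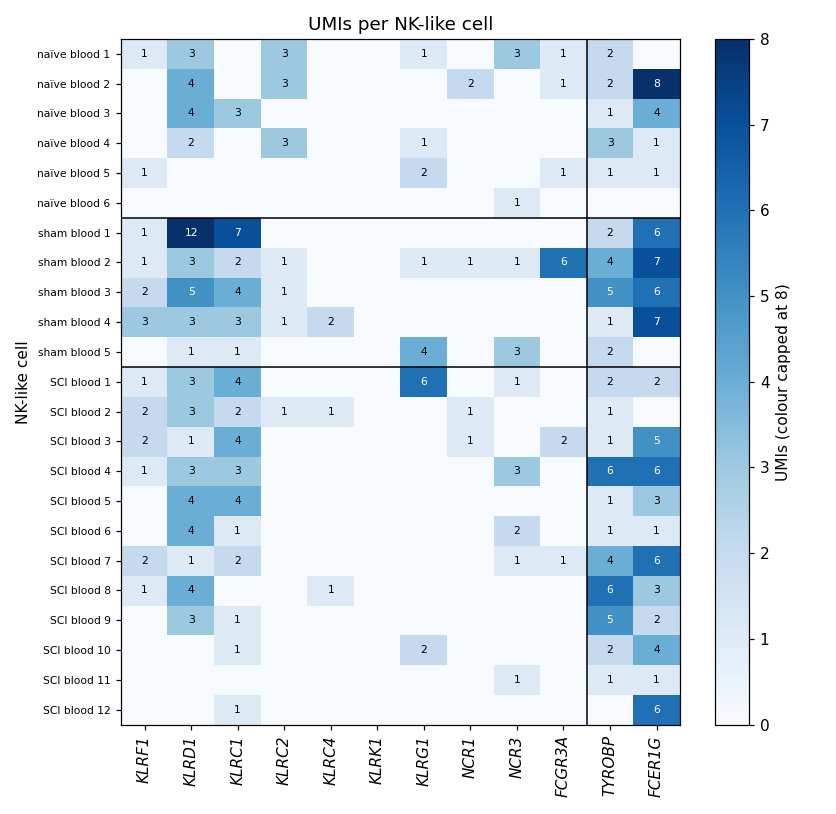
UMIs of the 10 members and of the adaptors TYROBP and FCER1G (x axis) in each of the 23 NK-like cells of blood (y axis, grouped by library), with colour giving the UMI number up to 8. KLRD1 and KLRC1 fill most cells of sham and SCI blood, the KLRC2 UMIs lie mainly in naïve cells, and the KLRK1 column is empty.

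The inhibitory pair KLRD1 and KLRC1 and the NK cell receptor KLRF1 were each detected in NK-like cells of every blood library. In naïve blood, however, no cell held both KLRC1 and KLRF1, and KLRC1 and KLRC2 were not spread evenly over the libraries. KLRD1 stood at 1333 CPM (UMIs of the gene scaled to the summed human UMIs of the class, leaving out ribosomal protein and mitochondrial genes) in naïve, 1591 in sham and 993 in SCI NK-like cells, from 13, 24 and 26 UMIs. CPM of 3' counts compare a gene between cells and not the genes with each other. KLRF1 stood at 205, 464 and 344 CPM, from 2, 7 and 9 UMIs. The 3 libraries overlap for both genes within their counting intervals. KLRC1 was found in 1 of 6 naïve, 5 of 5 sham and 10 of 12 SCI cells, at 308, 1127 and 879 CPM. KLRC2 was found in 3 of 6, 3 of 5 and 1 of 12 cells, at 923, 199 and 38.2 CPM, so that naïve blood, which had the lowest KLRC1, had the highest KLRC2. These KLRC2 values rest on 9, 3 and 1 UMIs.

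The remaining receptors were low in UMIs in NK-like cells. NCR3 had 410, 265 and 306 CPM (4, 4 and 8 UMIs) and KLRG1 410, 331 and 306 CPM (4, 5 and 8 UMIs), with no separation of the libraries. FCGR3A had 308, 398 and 115 CPM, and all 6 of its sham UMIs lay in 1 cell. NCR1 had 2, 1 and 2 UMIs, and KLRC4 had 0, 2 and 2. KLRK1 is annotated on the same stretch of the genome as the read-through gene KLRC4-KLRK1, which had 15 UMIs in blood, and reads that match both genes cannot be assigned to either of them. KLRK1 had only 192 UMIs in all blood cells, so its levels are uncertain throughout, and a count of 0 in NK-like cells allows up to 308, 199 and 115 CPM.

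To ask which receptors set NK-like cells apart from the T cells closest to them, sums per class and library were compared with edgeR's quasi-likelihood test, with the 3 blood libraries as replicates and library as a term. These libraries differ in condition and are pools. With library as a term, the p-values measure how differences between classes vary over the 3 pools. That spread was estimated in a single fit of NK-like, B-like and all T cell classes. Adjusted p-values are Benjamini-Hochberg over 9890 genes, of which 9 were members. KLRK1 did not pass the filter on low counts. NK-like cells were higher than cytotoxic CD8 T cells for 4 of the 9 members and lower for none, where 4.60% of all genes passed the threshold in either direction. The 4 include NCR1, which passed the filter on low counts through the NK-like class itself, so that its call is a description only. The calls of KLRC1 and NCR1 were also lost under several settings given below. The median log2 difference of all genes in this contrast was -0.83 with TMM factors and -0.32 with RLE factors, with 54 genes higher and 401 lower in the first case and 64 and 57 in the second, and the member values below stand relative to that shift.

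KLRF1, an activating receptor of NK cells, had the largest estimate of the 9 members, with 18 UMIs in 23 NK-like cells against 3 in 924 cytotoxic CD8 T cells. It was absent from cytotoxic CD8 T cells of naïve and sham blood. In sham blood the level in NK-like cells, from 7 UMIs, was 148 times a floor of 3 counts for cytotoxic CD8 T cells. That ratio leaves out the counting error of the 7 UMIs and is not a lower bound. In SCI blood the level was 183-fold higher (95% interval 45.6 to 1049, from 9 and 3 UMIs). The edgeR adjusted p over the 3 libraries was 1.51e-06. No fold is given for naïve blood, with 2 UMIs against 0. KLRD1 was higher by 1.90 ± 0.35 (log2 ± SE, edgeR adjusted p = 0.000533), in 3 of 3 libraries. KLRF1 and KLRD1 passed the threshold under each of 16 alternative settings. Barring TRBC transcripts was not among these, since too few NK-like cells remained to fit the contrast. In the 7 NK-like cells without TRBC transcripts, KLRF1 was found in 2 and KLRD1 in 6.

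KLRC1 and NCR1 passed the threshold less firmly. KLRC1 was 3.18 ± 0.89 higher on the log2 scale (edgeR adjusted p = 0.0335), and the call was lost without the SCI library (adjusted p = 0.295) or the sham library (0.291), and with DESeq2 (0.315), no library term (0.0917) or a stricter cytotoxic gate (0.0775). NCR1, with 5 UMIs in NK-like and 10 in cytotoxic CD8 T cells, was 4.46 ± 1.28 higher (edgeR adjusted p = 0.0472), and the call was lost under 7 of 14 alternatives, among them without the sham library (0.234), with DESeq2 (0.909) and with no filter on low counts (0.0521). NCR1 had 66.3 to 205 CPM in NK-like cells and at most 16.3 CPM in any other class of the blood libraries, so that it passed the filter through the class where it was high, and its value is a description only. KLRC2 (2.65, adjusted p = 0.0623), NCR3 (1.89, 0.126), FCGR3A (2.16, 0.354), KLRG1 (0.81, 0.466) and KLRC4 (0.19, 0.932) did not pass in edgeR. KLRC1, KLRC2 and KLRC3 are similar in sequence, FCGR3A and FCGR3B are near-identical copies, and reads may be divided between the genes of each set. KLRC3 and FCGR3B had 28 UMIs each in blood.

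The adaptors of these receptors separated the 2 classes as well. Of 8 adaptor genes, TYROBP (log2 difference 8.76, edgeR adjusted p = 7.54e-08) and FCER1G (4.15, 1.06e-05) were higher in NK-like cells, and LAT and SH2D1A, which serve T cell receptor and SLAM family signalling, were lower by 3.72 and 4.04. TYROBP stood at 923, 928 and 1146 CPM in NK-like cells of naïve, sham and SCI blood and at 2.48, 1.04 and 1.26 CPM in cytotoxic CD8 T cells. HCST, the partner of KLRK1, and CD247 were among the 4 adaptors that did not pass. Of 11 other NK receptor genes tested, CD160 (4.47, edgeR adjusted p = 7.58e-06) and CD300A (2.29, 0.0102) were higher in NK-like cells and none was lower.

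Among T cells, the receptors followed different classes rather than a single cytotoxic pattern. KLRD1, KLRC1, KLRC2 and FCGR3A were highest in cytotoxic CD8 T cells or TRDC+ T cells, KLRC4 in GZMK+ CD8 T cells, and NCR3 in FOXP3+ CD4 T cells. KLRG1 was found in every T cell class. In CD4 T cells outside the cytotoxic class, KLRC1, KLRC2, KLRC4 and FCGR3A had no UMI in 3356 cells of blood. For the larger of these CD4 classes, a count of 0 allows up to 0.997, 0.652 and 0.687 CPM in naïve, sham and SCI blood. In 8 of the 10 cases NK-like cells had the highest mean over the blood libraries of all classes, the exceptions being KLRC4 and KLRK1, which were highest in GZMK+ CD8 T cells. For KLRC4 the ranges of GZMK+ CD8 T cells (60.0 to 86.4 CPM) and NK-like cells (0 to 133 CPM) overlapped. For KLRK1 the limits on 0 UMIs in NK-like cells lie above the GZMK+ levels (9.90 to 12.3 CPM), so that the order of these classes is not known. For KLRF1, KLRD1, KLRC1, NCR1 and NCR3 every NK-like value lay above every value of the next class. For KLRC2, KLRG1 and FCGR3A the ranges of NK-like cells and of the next class overlapped. Below that, neighbouring classes mostly overlapped, with KLRD1 as the clearest ladder: cytotoxic CD8 and TRDC+ T cells overlapped, lay above a group of other CD8, CD4+CD8+ and GZMK+ CD8 T cells, and these lay above T cells with neither, other CD4 and FOXP3+ CD4 T cells in turn. The few cytotoxic CD4 T cells, from 0 to 146 CPM, overlapped all of these groups.

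**Figure D2:**
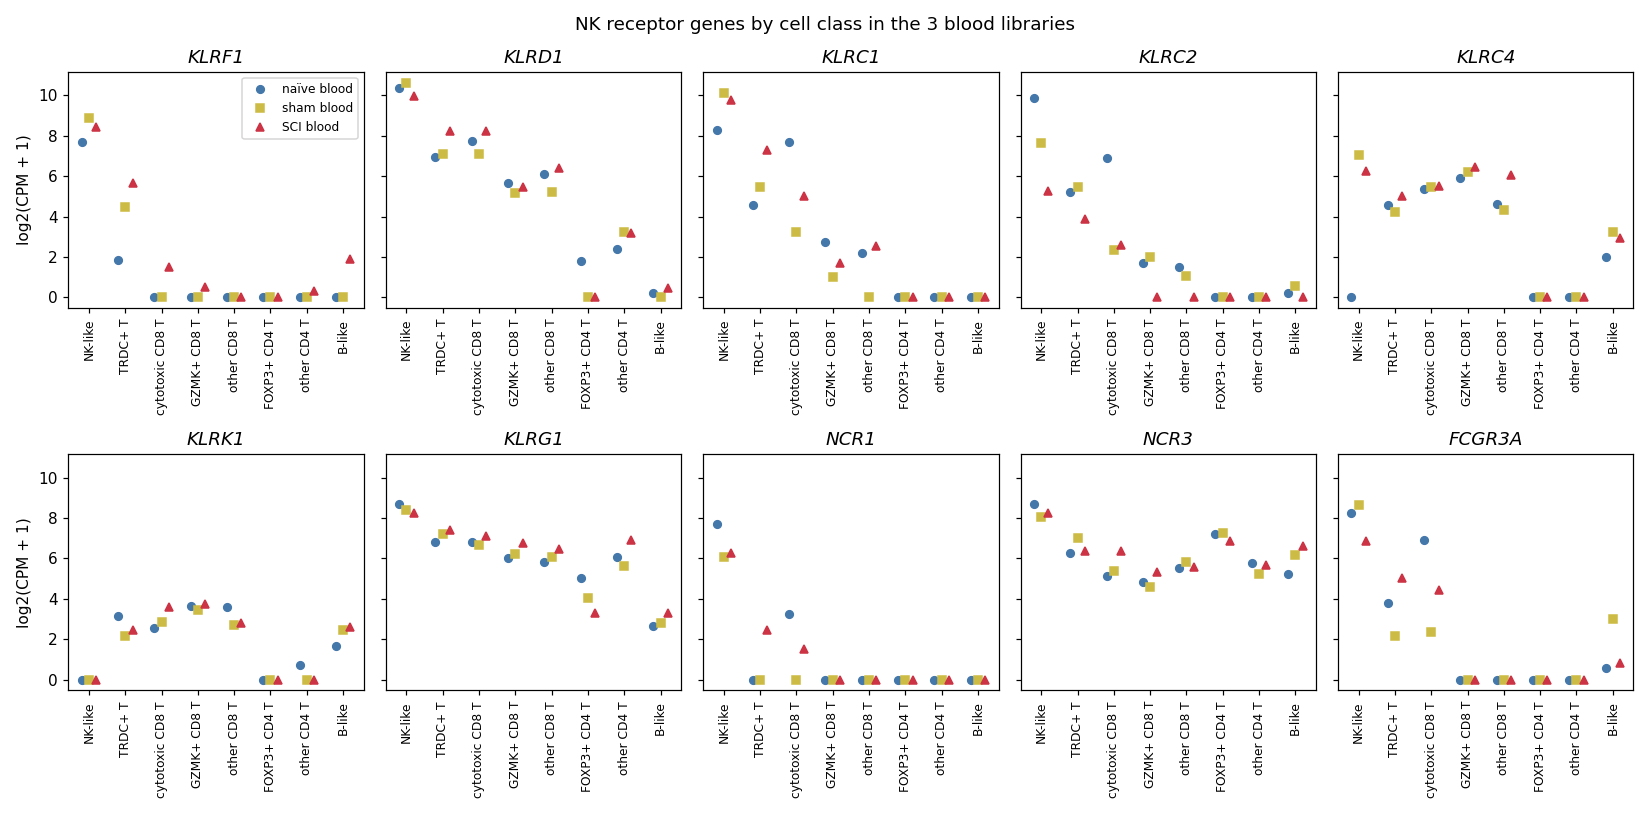
Level of each of the 10 members, as log2(CPM + 1) on the y axis, in 8 cell classes on the x axis, with a blue circle for naïve, a yellow square for sham and a red triangle for SCI blood. KLRD1 falls from NK-like to cytotoxic CD8 T and then to other T cells, while NCR3 is high in FOXP3+ CD4 T cells and KLRC4 in CD8 T cells.

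Cytotoxic CD8 T cells differed from GZMK+ CD8 T cells, a class known for a less terminal effector state, in 4 of 9 members, all higher in the cytotoxic cells, beside 8.91% of all genes. KLRD1 stood at 214, 135 and 297 CPM in cytotoxic cells of naïve, sham and SCI blood and at 49.6, 34.7 and 43.2 CPM in GZMK+ cells, without overlap of the classes. It was 2.38 ± 0.25 higher on the log2 scale (edgeR adjusted p = 3.15e-08), and passed under each of 17 alternatives. KLRC1 was 4.54 ± 0.96 higher (edgeR adjusted p = 0.00226) and KLRC2 was 4.18 ± 0.78 higher (0.000444). With DESeq2 the adjusted p for KLRC1 was 0.0505. The KLRC2 call rested on naïve blood, since without that library the difference was 2.19 (adjusted p = 0.209).

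FCGR3A was not detected in GZMK+ CD8 T cells of any blood library. Its 96, 4 and 33 UMIs in cytotoxic CD8 T cells stood at 34.3, 1.41 and 15.7 times the floor of 3 counts in naïve, sham and SCI blood. These ratios leave out the counting error of the UMIs and are not lower bounds. In sham blood, 4 against 0 UMIs show no clear difference. The edgeR adjusted p over the 3 libraries was 0.000981. KLRG1, NCR3, NCR1, KLRF1 and KLRC4 did not pass this contrast. Of these, KLRC4 lay closest to the threshold, at 40.9, 43.8 and 44.6 CPM in cytotoxic and 60.0, 73.3 and 86.4 CPM in GZMK+ cells, a log2 difference of -0.77 (edgeR adjusted p = 0.0503). It passed under 11 of 17 alternatives. The adaptor FCER1G was 1.53 lower in cytotoxic than in GZMK+ CD8 T cells on the log2 scale (edgeR adjusted p = 0.00921), and TYROBP was near 0 in both.

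KLRC4, which encodes NKG2F, a relative of the other NKG2 proteins, had most of its T cell UMIs in CD8 T cells. It was 1.02 ± 0.27 higher in GZMK+ than in other CD8 T cells on the log2 scale (edgeR adjusted p = 0.0207), the only call of 9 members in a contrast where 4.64% of genes passed, and this was lost without sham blood (0.69, adjusted p = 0.533), with DESeq2 (0.0554) and with no library term (0.109). In other CD8 T cells it had 23.7, 18.9 and 65.9 CPM, so that SCI blood was the highest. KLRK1 followed the same classes at low numbers, with 11.5, 9.90 and 12.3 CPM in GZMK+ CD8 T cells.

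Cytotoxic CD4 T cells were few, with 11, 8 and 25 cells. KLRD1 had 0, 9 and 6 UMIs in them and was higher in cytotoxic CD8 T cells by 2.27 ± 0.46 on the log2 scale (edgeR adjusted p = 0.00239), where the median of all genes was 0.13. KLRC4 had no UMI in cytotoxic CD4 T cells (edgeR adjusted p = 0.00517). These were the 2 calls of 9 members, beside 4.58% of genes. Both were lost without SCI blood, where the adjusted p was 0.347 for KLRD1 and 0.165 for KLRC4. For KLRC4 a count of 0 could be set against the floor only in SCI blood. There the level in cytotoxic CD8 T cells was 2.57 times that floor, leaving out the counting error of the level. All 14 KLRC1 UMIs of this class lay in 1 sham cell.

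TRDC+ T cells, which carry transcripts of the T cell receptor delta chain, shared KLRD1 with cytotoxic CD8 T cells and in addition held KLRF1. KLRD1 stood at 121, 138 and 301 CPM in TRDC+ cells of naïve, sham and SCI blood, a range that overlaps that of cytotoxic CD8 T cells. KLRF1 had 1, 6 and 11 UMIs in 1, 3 and 4 cells of 157, 71 and 72. It was 4.83 ± 0.89 higher than in cytotoxic CD8 T cells on the log2 scale (edgeR adjusted p = 0.0118), the only call of 9 members in a contrast with 0.121% of genes called. The call was lost without SCI (adjusted p = 0.298) or sham blood (0.472), with DESeq2 (0.214), with no library term (0.158) and with looser CD3 (0.0575) or stricter cytotoxic (0.0626) gates. Up to 5 of its UMIs lay in a single cell, and 1, 2 and 3 of the cells with KLRF1 also held TYROBP, which was in 4, 4 and 7 TRDC+ cells in all. TYROBP was also higher in TRDC+ than in cytotoxic CD8 T cells (log2 difference 4.86, edgeR adjusted p = 0.0232). The part that NK cells with TRDC transcripts have in this result was not tested.

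FOXP3+ CD4 T cells, the class of regulatory T cells, differed from other CD4 T cells in NCR3 and KLRG1, in opposite directions. NCR3 stood at 145, 150 and 114 CPM in FOXP3+ cells and at 54.2, 36.3 and 50.6 CPM in other CD4 T cells, without overlap. The log2 difference was 1.59 ± 0.27 (edgeR adjusted p = 0.000106). KLRG1 was at 31.9, 15.8 and 8.77 CPM in FOXP3+ cells and at 65.8, 48.0 and 120 CPM in other CD4 T cells, lower by 1.98 ± 0.37 on the log2 scale (edgeR adjusted p = 0.000398). Both passed under each of 17 alternatives, and they were the 2 calls of 9 members beside 6.87% of genes. Of the other NK receptor genes in this contrast, TIGIT was higher in FOXP3+ cells by 1.85, and CD226, CD96 and CD300A were lower.

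**Figure D3:**
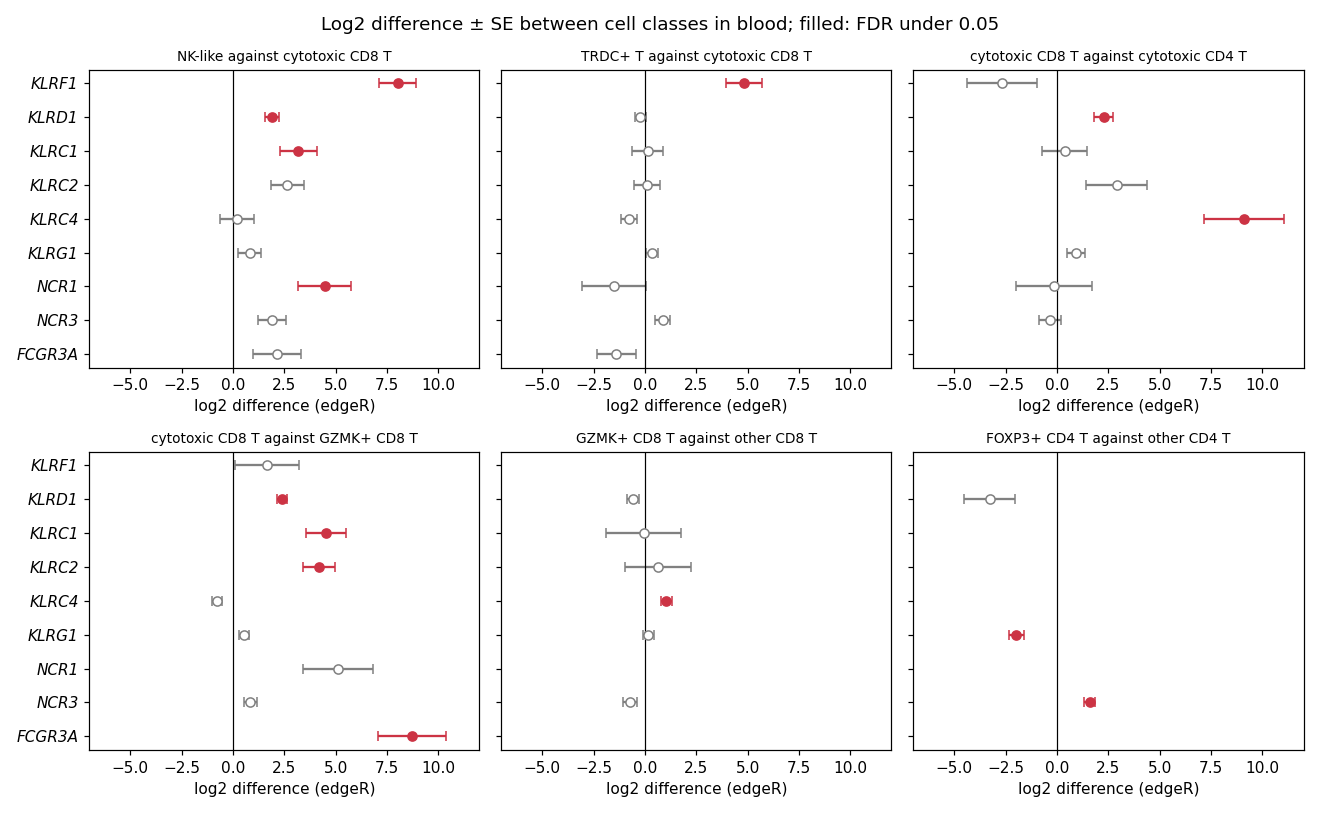
Log2 difference ± SE from the edgeR fit (x axis) for 9 members (y axis) in 6 contrasts between classes over the 3 blood libraries, filled red where the adjusted p is under 0.05. Values with an SE of 2 or more are not drawn and KLRK1 was not tested. KLRF1 lies farthest to the right in the contrast of NK-like with cytotoxic CD8 T cells, and NCR3 and KLRG1 lie on opposite sides in FOXP3+ CD4 T cells.

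Between libraries, KLRC1, KLRC2 and FCGR3A differed in cytotoxic CD8 T cells, where naïve blood held most of their UMIs. KLRC1 had 206 CPM (95% counting interval 176 to 239) in naïve, 8.35 (3.60 to 16.4) in sham and 32.0 (23.8 to 42.1) in SCI blood, from 166, 8 and 51 UMIs. KLRC2 had 120 (97.5 to 147), 4.17 (1.14 to 10.7) and 5.02 (2.17 to 9.89) CPM. FCGR3A had 119 (96.3 to 145), 4.17 (1.14 to 10.7) and 20.7 (14.3 to 29.1) CPM. Naïve blood thus lay apart from both operated libraries for all 3 genes, and SCI lay between naïve and sham for KLRC1 and FCGR3A.

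As log2 ratios, sham against naïve was -4.54 for KLRC1 (-5.86 to -3.61), -4.69 for KLRC2 (-6.75 to -3.45) and -4.67 for FCGR3A (-6.74 to -3.43). SCI against naïve was -2.67 (-3.17 to -2.22), -4.50 (-5.83 to -3.55) and -2.51 (-3.14 to -1.94). These comparisons share the naïve library. In the SCI against sham comparison KLRC1 was 1.87 (0.85 to 3.23), FCGR3A 2.16 (0.82 to 4.27) and KLRD1 1.14 (0.86 to 1.43). Among the other members, KLRC4 and KLRG1 were closer between libraries, at 40.9, 43.8 and 44.6 CPM and at 110, 100.2 and 138 CPM. NCR3 was higher in SCI than in naïve blood by 1.21 (0.64 to 1.88) in this class. In CD4+CD8+ T cells (-0.92, -1.72 to -0.14) and T cells with neither (-0.23, -0.45 to -0.01) NCR3 was lower. In cytotoxic CD8 T cells KLRK1 was also past 2-fold higher in SCI than in naïve blood, on only 28 UMIs and 4.96 to 11.3 CPM over the 3 blood libraries. Under alternative settings its log2 ratio of SCI to naïve ran from 0.54 to 1.84.

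Counted against all genes, 3 of 7 members with at least 20 counts lay 2-fold or more apart in sham against naïve (4.06% of genes), 5 of 8 in SCI against naïve (4.60%) and 3 of 7 in SCI against sham (3.47%). With cells thinned to 1000 UMIs, KLRC1 was found in 11.1%, 0.881% and 1.83% of cytotoxic CD8 T cells, and in none of the B-like cells, which should lack it and where a count of 0 allows up to 0.470, 1.51 and 1.19 CPM. Without thinning these shares were 20.3%, 2.64% and 6.42%, at median depths of 3895, 5468 and 4683 UMIs in cytotoxic CD8 T and 4028.5, 5642.5 and 4848 in B-like cells. Before and after thinning the shares ran in the reverse order of depth, and the part of depth was not tested.

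**Figure D4:**
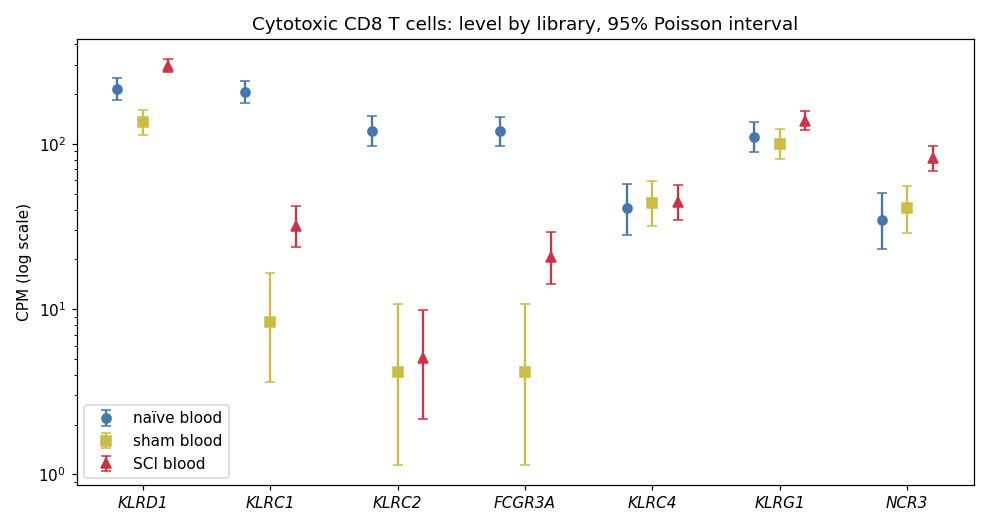
CPM on a log axis (y) of 7 members (x) in cytotoxic CD8 T cells of each library, with exact 95% Poisson intervals as bars. KLRC1, KLRC2 and FCGR3A lie far higher in naïve blood than in sham or SCI blood, whereas KLRC4 lies between 40.9 and 44.6 CPM in the 3 blood libraries.

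The KLRC1, KLRC2 and FCGR3A transcripts of naïve blood lay largely in the same cells. KLRC1 and KLRC2 were found together in 35 of 261 naïve cytotoxic CD8 T cells (13.4%, exact 95% interval 9.52 to 18.2), against 1 of 227 sham (0.441%) and 2 of 436 SCI cells (0.459%). The 35 cells held 110 of the 166 KLRC1 UMIs, 83 of the 97 KLRC2 UMIs and 55 of the 96 FCGR3A UMIs. FCGR3A was in 23 of them, and 34 of the 39 naïve cells with FCGR3A had KLRC1 or KLRC2. In SCI blood, where 28 cells had KLRC1 and 24 had FCGR3A, only 4 had KLRC2.

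None of the 35 cells had a UMI of TYROBP, the adaptor through which the KLRC2 receptor signals, while 29 had HCST. TYROBP was rare in the whole class, in 2 of 261 naïve cytotoxic CD8 T cells. Its absence therefore does not set the 35 cells apart from their class. A count of 0 in 35 cells permits at most 8.57% of cells with a TYROBP UMI, at a median of 4339 UMIs per cell. The UMIs were not concentrated in a few cells, with at most 8 KLRC1 UMIs in a cell, and 2 of the 35 carried a doublet mark. Since KLRC1 and KLRC2 are similar in sequence, the joint detection of both is uncertain to the extent that reads were assigned to the wrong gene.

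KLRG1, an inhibitory receptor of differentiated T cells, was higher in SCI than in sham or naïve blood in most T cell classes. Over all T cells it had 72.2, 54.0 and 123 CPM in naïve, sham and SCI blood, from 836, 749 and 1898 UMIs. In other CD4 T cells it had 65.8 (56.9 to 75.6), 48.0 (41.9 to 54.8) and 120 (110 to 131) CPM. In T cells with neither a CD4 nor a CD8 UMI it had 74.1 (67.0 to 81.8), 48.1 (42.2 to 54.6) and 139 (129 to 149) CPM. The SCI intervals lie above the others in both classes. The class with neither is the largest T cell class, with 1985, 1384 and 1602 cells. Cells whose CD4 or CD8 transcripts were present but not captured also fall into it, and their share was not tested.

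SCI was the highest of the blood libraries for KLRG1 in 8 of 9 T cell classes, the exception being FOXP3+ CD4 T cells. Among 11021 genes with at least 100 UMIs the median was 3 classes, and 1.30% of genes reached 8 or more. The log2 ratio of SCI to sham was 1.18 (1.06 to 1.31) over all T cells, 1.32 (1.09 to 1.56) in other CD4 T cells, 1.53 (1.32 to 1.74) in T cells with neither and 3.50 (2.20 to 5.60) in CD4+CD8+ T cells, which had 4 UMIs in sham blood. Against naïve it was smaller, at 0.76 over all T cells and 0.87 (0.63 to 1.11) in other CD4 T cells. In cytotoxic CD8 T cells the SCI to sham ratio was 0.46 (0.11 to 0.82) and in GZMK+ CD8 T cells 0.52 (0.15 to 0.92), both under 2-fold.

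Thinned to 1000 UMIs, KLRG1 was in 4.02%, 3.19% and 8.33% of other CD4 T cells and in 0.499%, 0.214% and 0.271% of B-like cells. Before thinning the shares were 15.9%, 13.5% and 28.2% in CD4 T and 2.43%, 2.56% and 2.71% in B-like cells. Median depths were 3778, 5531.5 and 5053.5 UMIs in other CD4 T cells and, as above, 4028.5 to 5642.5 in B-like cells. The share in CD4 T cells thus lay above that in B-like cells in every library. GZMK+ CD8 T cells made up 5.62%, 6.48% and 13.5% of human cells in naïve, sham and SCI blood and cytotoxic CD8 T cells 4.12%, 4.87% and 7.34%, so that the mix of T cells also differed between libraries. With T cell classes at equal weight the SCI to sham ratio of KLRG1 over all T cells was 0.84.

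**Figure D5:**
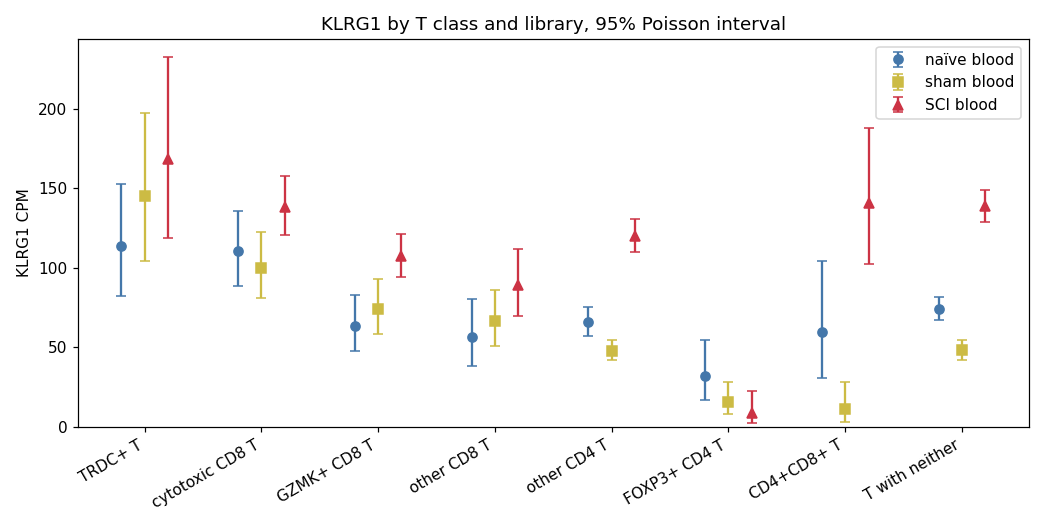
KLRG1 level in CPM (y axis, linear) in 8 T cell classes (x axis) of the 3 blood libraries, with exact 95% Poisson intervals. SCI is highest in each class drawn except FOXP3+ CD4 T cells, where naïve is highest.

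Over all T cells, 3 of 8 members lay 2-fold or more apart in sham against naïve (2.43% of genes), 5 of 9 in SCI against naïve (4.22%) and 5 of 9 in SCI against sham (3.61%). KLRC1, KLRC2 and FCGR3A were lower in sham than in naïve by 2.63, 2.77 and 4.36 on the log2 scale. KLRD1 was 1.17 (0.99 to 1.36) higher in SCI than in sham, with 32.7, 25.0 and 56.2 CPM in naïve, sham and SCI blood. In other CD4 T cells, 0 of 3 members were past 2-fold in sham against naïve (2.32% of genes), 0 of 3 in SCI against naïve (3.28%) and 1 of 3, KLRG1, in SCI against sham (2.92%). KLRC4 in other CD8 T cells was higher in SCI than in naïve by 1.43 and than in sham by 1.77 on the log2 scale.

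In TRDC+ T cells KLRC1 ran the opposite way to cytotoxic CD8 T cells, with SCI above naïve. It had 23.2, 42.5 and 155 CPM in naïve, sham and SCI blood, from 9, 12 and 34 UMIs in 6, 3 and 9 cells. The log2 ratio of SCI to naïve was 2.68 (1.65 to 3.98) and of SCI to sham 1.83 (0.88 to 2.95). KLRD1 was also higher in SCI than in naïve TRDC+ cells, by 1.30. Of the cells with KLRC1, 3 of 6, 3 of 3 and 5 of 9 also held TYROBP. In SCI against naïve TRDC+ cells, 2 of 4 members and 8.18% of genes lay 2-fold or more apart. EOMES stood at 176, 31.9 and 22.8 CPM in TRDC+ cells of naïve, sham and SCI blood, while TBX21 stood at 28.4, 31.9 and 31.9 CPM. The part of the make-up of this class in the KLRC1 values was not tested.

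In the injured cord the receptors were read in 53 T cells and no NK-like cell. KLRG1 had 116 UMIs in the 118 human cells of the cord, of which 47 were in myeloid-like cells, and 14 lay in the 18 other CD4 T cells, at 133 CPM (72.7 to 223) against 120 in SCI blood. In cytotoxic CD8 T cells KLRG1 had 3 UMIs, at 61.0 CPM (12.6 to 178) against 138 in SCI blood, a log2 ratio of -0.96 (-3.47 to 0.39). KLRD1 had 18 UMIs in 10 cytotoxic CD8 T cells, at 366 CPM (217 to 578) against 297 in SCI blood. KLRC1, with 51 UMIs in SCI blood, had none in cord cytotoxic CD8 T cells, which allows up to 61.0 CPM, and so no difference was detectable at this depth. In the same class, KLRC4 (6 UMIs) and KLRK1 (3 UMIs) were higher in the cord by 1.56 and 2.61 on the log2 scale. FCGR3A, with 2 UMIs, was also past 2-fold there. Under alternative settings these ratios ran from 1.27 to 2.31 for KLRC4, 2.02 to 2.95 for KLRK1 and 0.65 to 1.46 for FCGR3A. All 3 rest on few UMIs, and 32.1% of all genes were past 2-fold in this comparison. NCR3 had no UMI in cord other CD4 T cells, which allows 28.5 CPM against 50.6 in SCI blood.

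Members past 2-fold between cord and SCI blood numbered 2 of 7 over all T cells (19.3% of genes), 4 of 7 in cytotoxic CD8 T cells (32.1%) and 1 of 3 in other CD4 T cells (25.4%). Among these, KLRC1 in cytotoxic CD8 T cells and NCR3 in other CD4 T cells had no cord UMI and were counted only by way of the 0.5 added counts, and the limits above do not show a 2-fold difference for either. These backgrounds exceed those between blood libraries, and the cord counts rest on 53, 10 and 18 cells.

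Outside T and NK-like cells, 3 members were well represented. NCR3 had 36.6, 70.5 and 96.3 CPM in B-like cells of naïve, sham and SCI blood. KLRG1 had 150, 239 and 531 CPM in myeloid-like cells, from 127, 228 and 247 UMIs, and FCGR3A had 63, 42 and 2 UMIs there. The myeloid-like class itself differed between libraries, with 18.2% of genes 2-fold or more apart in SCI against naïve, and with TYROBP at 1615, 1387 and 854 CPM and SYK at 166, 117 and 53.8 CPM. The part of its make-up in the KLRG1 and FCGR3A values was not tested.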

How the data were processed

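The authors aligned reads and counted UMIs with Cell Ranger 3.1.0 on a combined GRCh38 and mm10 reference, and deposited the raw count of each gene per barcode. Barcodes with over 50% human UMIs were kept, those beyond 3 median absolute deviations per library removed, and marked doublets (0.8% per 1000 barcodes) removed where over 3000 genes were found. Class contrasts were fitted with edgeR 4.0.16 under R 4.3.3 (TMM, filterByExpr, quasi-likelihood, genes of the gates left out, classes with at least 5 cells in each blood library), with DESeq2 1.42.0 as an alternative. Library comparisons used 0.5 added counts, genes with at least 20 counts, classes with at least 10 cells (NK-like levels are given below that number) and 95% conditional binomial intervals, in Python 3.11.15 with numpy 2.4.6, scipy 1.17.1 and pandas 2.3.3, and figures were drawn with matplotlib 3.10.9. A 2-fold difference was counted. The calculations were tested on simulated data.

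Named genes are the 10 members, genes with at least 100 UMIs in T and NK-like cells of blood from lists of adaptors, other NK receptors and ligands, and the 3 genes nearest to each member with at least 100 UMIs by Pearson correlation over class means. KLRC3, FCGR3B and KLRC4-KLRK1 were named after their values were seen. Members, lists and gates were chosen with earlier results of these data known. Alternatives changed gates, filters, scaling, added counts and libraries. No member sequence is printed.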

Additional observations from a re-analysis of the deposited data

Results flagged for a closer look

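KLRC1 differed between SCI and naïve blood in opposite directions in 2 T cell classes. The log2 ratio of SCI to naïve was 2.68 in TRDC+ T cells, from 34 and 9 UMIs, and -2.67 in cytotoxic CD8 T cells, from 51 and 166 UMIs. It was picked out because the signs were opposite, and the difference between the classes was not tested, since each condition has 1 library. Over the alternative settings the ratio stayed between 1.66 and 2.99 in TRDC+ and between -2.75 and -2.44 in cytotoxic CD8 T cells. The TRDC+ value rests on 6 and 9 cells with KLRC1, and up to 8 UMIs lay in a single SCI cell. The part of the make-up of the TRDC+ class in each library was not tested.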

How the results depend on the processing

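No paired analysis was possible because each condition had 1 library. Of the results that answer a comparison, 237 values under alternatives kept to within the spread or 1.5 times and 32 moved. The NK-like share of SCI blood was 0.0505% when TRBC transcripts were also barred and 0.455% when 1 CD3 UMI was allowed, and without TRBC that of naïve blood was 0.0632% and that of sham blood 0, where the NK-like contrast could not be fitted. Members called in GZMK+ against other CD8 T cells numbered 0 with DESeq2 or without the library term, 3 with only the 2 classes fitted, and 0 to 1 leaving out a library. For NK-like against cytotoxic CD8 T cells there were 2 with a cytotoxic panel of at least 5 UMIs or without the library term, and 2 to 3 leaving out a library. For TRDC+ against cytotoxic CD8 T cells there were 0 with 1 CD3 UMI allowed, DESeq2, a panel of at least 5, no library term or only the 2 classes, and 0 to 1 leaving out a library. Cytotoxic against GZMK+ CD8 T cells gave 7 with a panel of at least 5, and cytotoxic CD8 against CD4 T cells 4 without a filter and 0 to 2 leaving out a library.

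Members past 2-fold over all T cells numbered 3 in SCI against naïve with equal class weights or per-cell CPM, 5 in sham against naïve with no count minimum, and, in cord against SCI blood, 4 with equal weights or no minimum and 1 with per-cell CPM or thinning. In cytotoxic CD8 T cells they numbered 5 in SCI against sham with no minimum and 1 with thinning, and, in cord against SCI blood, 2 with a panel of at least 5 and 7 with no minimum. KLRC1 in cord against SCI blood turned to 0.98 on thinning to 1000 UMIs. The causes were not tested. Few cells limit the NK-like class (23 in blood) and the cord (118 cells).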

Other observations

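Genes whose level over 12 cell classes ran closest to each member were read from 11909 genes with at least 100 UMIs, as a description over classes that share libraries. KLRD1 ran closest to PTGDR (Pearson r = 0.964), CLIC3 (0.957) and EOMES (0.950). KLRC1 ran closest to XCL2 (0.962), KLRC2 (0.959) and DTHD1 (0.932), and KLRC2 to XCL2 (0.976), KLRC1 (0.959) and SPON2 (0.949). KLRG1 ran closest to A2M-AS1 (0.955), CROT (0.950) and ID2 (0.950), KLRC4 to ZNF22 (0.960), AMIGO2 (0.950) and FCGBP (0.939), and KLRK1 to SERPINF1 (0.974), NT5E (0.961) and TTC24 (0.952). NCR3 ran closest to MRPS6 (0.931), ARPP19 (0.931) and ANKRD6 (0.930), and FCGR3A to LYST (0.958), STARD3NL (0.922) and GAB3 (0.914). KLRF1 and NCR1 had under 100 UMIs.

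Of the 15 ligand genes listed, 6 could be tested in edgeR. HLA-E, the ligand of the KLRD1 receptors, was higher in cytotoxic CD8 than in cytotoxic CD4 T cells by 0.59 on the log2 scale, as was CLEC2D by 0.64. CLEC2B, the ligand of KLRF1, was higher in cytotoxic than in GZMK+ CD8 T cells by 0.59, and CLEC2D was lower in NK-like than in cytotoxic CD8 T cells by 1.93. No ligand gene passed in the other 3 contrasts. The adaptor FCER1G was higher in GZMK+ than in other CD8 T cells by 1.82 (edgeR adjusted p = 0.00709), and over all T cells it was higher in SCI than in naïve blood by 1.49 and than in sham blood by 1.39, with no test between libraries. Of the other NK receptor genes, TIGIT (2.73), CD300A (1.05) and SLAMF6 (1.00) were higher in cytotoxic than in GZMK+ CD8 T cells, and CRTAM (4.45) and CD96 (0.98) were higher in cytotoxic CD8 than in cytotoxic CD4 T cells.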
